A study of Mus musculus with 14 samples.

Results

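The genes described here are the part of the insulin and insulin-like growth factor (IGF) signaling pathway that reads a hormone outside the cell and passes it to the AKT kinases. They are the ligand gene *Igf1*, the receptor genes *Igf1r*, *Igf2r* and *Insr*, the genes of the secreted binding proteins *Igfbp2* and *Igfbp7*, the adaptor genes *Irs1* and *Irs2*, and the kinase genes *Akt1* and *Akt2*. These 10 genes were chosen by name and not by a cut on their values, though with earlier results of these data known. They came from the 20515 genes with a usable symbol, and all 10 were found in the data of both mice. The values are the exon and intron FPKM of total RNA from mammary tissue of 2 mice at lactation day 10 (L10). FPKM are fragments per kilobase of transcript, on a scale set for each library. Both mice had the genotype wt/Wap-Tbrg4. They carried a wt allele and a fusion allele, made by CRISPR-Cas9 in C57BL/6 zygotes, in which the deletion of the DNA between the promoters joined the first exons of *Wap* and *Tbrg4* and placed *Tbrg4* under the *Wap* promoter and super-enhancer. The age of the mice, and whether the line came from more than one founder, are not given in the sources used here. The study asked how this super-enhancer acts on a promoter other than its own, and the 10 genes lie outside its locus. RNA was analysed from 1 genotype, so no test between groups was possible, and each value rests on the spread between the 2 mice, termed mouse 1 and mouse 2 below.

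Insulin and IGF1 bind related receptor tyrosine kinases, the products of *Insr* and *Igf1r*, which phosphorylate the adaptor proteins IRS1 and IRS2. The adaptors recruit PI3K, whose lipid product brings AKT to the membrane, where it is activated and acts on glucose uptake, protein and lipid synthesis and cell survival. In the mammary gland this pathway is known for its part in ductal growth during development and in the synthetic and survival functions of the secretory epithelium during lactation.

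The summed exon FPKM differed between the mice, at 852961 in mouse 1 and 1788120 in mouse 2, and the 10 most abundant genes held 79.5% and 90.6% of it. From the steps between low values, 1 read in 1 kb was worth 0.1 FPKM in mouse 1 and 0.196 FPKM in mouse 2, which puts the depth near 12000000 exon reads in mouse 1 and 11300000 in mouse 2. In mouse 1 that estimate rests on 81 low values, of which 86.4% were whole numbers of reads within the rounding of 0.05 FPKM (34.8% by chance). In mouse 2 it rests on 417 values, of which 82.7% were whole (36.1% by chance). The depths were thus near each other while the value of 1 read was not, so FPKM was not scaled by exon reads alone. The markers of secretory epithelium were all present, with a summed exon FPKM of 290120 in mouse 1 and 725049 in mouse 2, which matched the tissue label. That sum is nearly all *Csn2* and *Wap*, and 3 of the 5 markers were higher in mouse 1. Markers of other cells were also measured, with summed exon FPKM in the 2 mice of 43.4 and 32.5 for myoepithelium, 161.7 and 147.2 for fibroblasts, 600.4 and 683.9 for adipocytes, 47.5 and 42.4 for endothelium and 56.5 and 27.2 for macrophages. The myoepithelial marker *Acta2* was listed at 0 in both mice. In bulk tissue, fewer cells of a type and less RNA per cell cannot be told apart.

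For 1 of the 10 genes, a copy of its coding sequence limits how far its exon value can be read. The coding sequence of *Akt2* has an intronless copy, annotated as the pseudogene *Akt2-ps*, on the plus strand at chr11:16514533-16515981 of GRCm38, which covers its whole length with 98.6% identity. Of the 1397 stretches of 50 bases in the *Akt2* coding sequence, 717 (51.3%) also occur in the copy without a difference. That coding sequence has 1446 bases, while the merged exons of *Akt2* in RefSeq have 5181. The exon bases outside it were not searched for copies, so 51.3% is not the share of the whole exon value. The copy is not a gene of the deposited list, and how reads with more than one place in the genome were treated is not given in the sources used here. The other 9 genes had no copy elsewhere that covered at least 50% of the coding sequence at an identity of at least 95%. The coding sequences of *Akt1* and *Akt2* were 76.8% identical over the aligned bases and shared no stretch of 50 bases, the longest common run being 32 bases. The stretch below, coding bases 115 to 144 of *Akt2* (RefSeq, GRCm38.p6), is shown because it sets the copy beside the paralog. Capitals mark bases that differ from *Akt2*, and the copy lies at chr11:16514647-16514676.
Akt2: aaggagaggcccgaggcccctgaccagacc
Akt2 copy: aaggagaggcccgagTcccctgaccagacc
Akt1: aaggaACggccTCaggATGTGgaTcagCGA
The copy differed from *Akt2* at 1 of the 30 bases and *Akt1* at 13. The exon value of *Akt2* may therefore include or lack reads shared with the copy, while a read of 50 coding bases tells *Akt1* from *Akt2*.

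Mean exon levels ran from 1.0 to 80.45 FPKM among genes that act in the same pathway. *Akt1*, *Irs1*, *Igf2r* and *Igfbp7* were among the most abundant transcripts of the gland, with mean exon FPKM of 80.45, 52.65, 49.35 and 49.25 and ranks of 269, 450, 490 and 493 of 20515 genes. *Igf1r* was the lowest of the 10, with 1.0 exon FPKM in both mice and a rank of 9752. The median of the 10 genes was 13.7 exon FPKM, beside 5.7 for the 9845 genes that averaged 1 exon FPKM or more. All 10 genes reached that level.

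**Figure D1:**
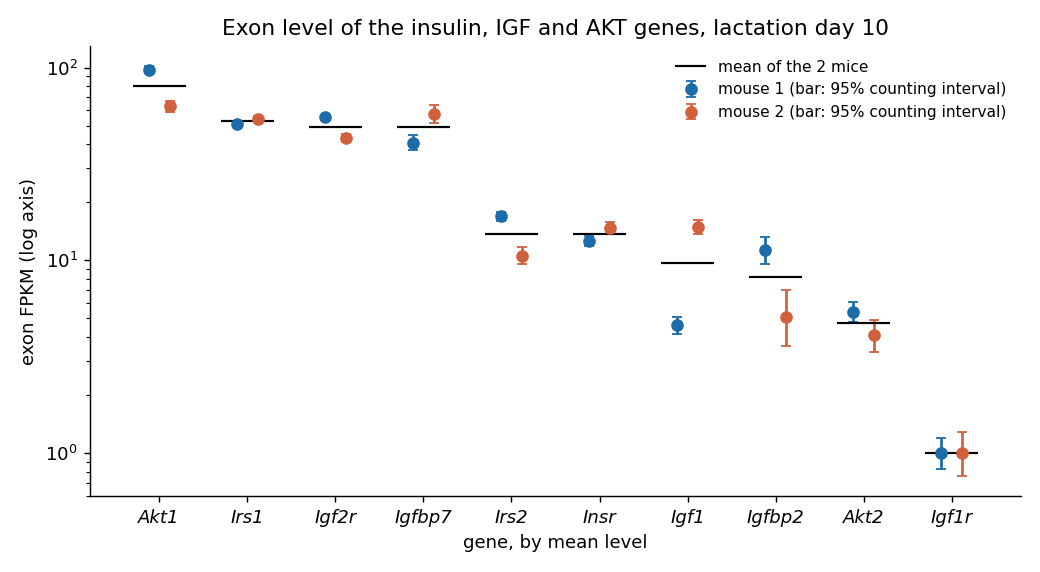
Exon FPKM (log axis) of each of the 10 genes in mouse 1 and mouse 2 at L10, ordered by the mean of the 2 mice (black line). Bars are 95% counting intervals. *Akt1*, at 97.8 and 63.1, is the highest and *Igf1r*, at 1.0 in both mice, the lowest, and the points of *Igf1* and *Igfbp2* lie farthest apart on this axis.

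*Igf1* encodes the ligand of the IGF1 receptor, a hormone made mainly by the liver and also locally in many tissues. The gene lies at chr10:87858265-87937047 on the plus strand (GRCm38, as are all positions below). Its exon FPKM was 4.6 in mouse 1 and 14.9 in mouse 2, a mean of 9.75 ± 7.28 (SD, n = 2). The value of mouse 2 was 3.24-fold that of mouse 1, the largest ratio among the 10 genes. The 95% counting intervals, which cover counting error only, ran from 4.15 to 5.09 in mouse 1 and from 13.7 to 16.1 in mouse 2 and did not overlap. Markers of hepatocytes, cells of a tissue outside the gland, had summed exon FPKM of 114.3 in mouse 1 and 210.3 in mouse 2. Most of that sum is *Alb*, at 94.4 and 194.2. Of these 3 markers, 2 were higher in mouse 2 and none was at 0. The fibroblast markers had 161.7 and 147.2, with 2 of 5 higher in mouse 2. The adipocyte markers had 600.4 and 683.9, with 2 of 4 higher in mouse 2. The part of any of these in the *Igf1* difference was not tested.

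The receptors differed widely. *Igf1r*, the receptor tyrosine kinase through which IGF1 signals, lies at chr7:67952257-68233667 on the plus strand. Its exon FPKM of 1.0 in each mouse corresponds to about 120 reads in mouse 1 and 61 in mouse 2, with counting intervals of 0.831 to 1.198 and 0.764 to 1.28. The SD of 0 reflects values rounded to 1 decimal. *Insr*, the insulin receptor, lies at chr8:3150922-3279617 on the minus strand. In exons it had 12.6 FPKM in mouse 1 and 14.7 in mouse 2, a mean of 13.65 ± 1.48 (SD, n = 2). The related receptors were thus 13.65 ± 1.48-fold apart within a mouse, with *Insr* the higher in both. Since *Igf1r* was listed at 1.0 in both mice, this SD is that of *Insr* and leaves out the counting error of *Igf1r*. *Igf2r* encodes the cation-independent mannose 6-phosphate receptor, which carries IGF2 and lysosomal enzymes into the cell and has no tyrosine kinase. It lies at chr17:12682406-12769706 on the minus strand and had 55.5 and 43.2 exon FPKM, a mean of 49.35 ± 8.70 (SD, n = 2). The antisense RNA *Airn* overlaps *Igf2r* and was listed at 2.8 and 2.7 exon FPKM. Its intron FPKM was 2.3 and 1.8, beside 0.8 and 0.5 for *Igf2r*. The kit marks strand, but the strand setting of the counting is not given in the sources used here. Whether reads of *Airn* enter the values of *Igf2r*, and so its exon to intron ratio below, is therefore not known.

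The binding proteins modulate IGF in the extracellular space. *Igfbp7*, a secreted protein that binds IGFs with low affinity, lies at chr5:77349240-77408045 on the minus strand. It was measured at 40.8 exon FPKM in mouse 1 and 57.7 in mouse 2, a mean of 49.25 ± 11.95 (SD, n = 2). *Igfbp2*, a high-affinity IGF-binding protein, lies at chr1:72824480-72852474 on the plus strand. It had 11.3 exon FPKM in mouse 1 and 5.1 in mouse 2, a mean of 8.20 ± 4.38 (SD, n = 2). The order of the mice was opposite for the pair, with *Igfbp7* higher in mouse 2 and *Igfbp2* higher in mouse 1. About 160 reads in mouse 1 and 37 in mouse 2 lie behind the value of *Igfbp2*, the fewest of the 10 genes in mouse 2. The last bases of *Igfbp7* overlap the end of *Polr2b* on the other strand, which had 14.4 and 13.2 exon FPKM.

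The adaptors were both well expressed. *Irs1* lies at chr1:82233105-82291439 on the minus strand and had 51.2 and 54.1 exon FPKM, a mean of 52.65 ± 2.05 (SD, n = 2). Its counting intervals, 49.7 to 52.7 in mouse 1 and 52.0 to 56.2 in mouse 2, overlapped. *Irs2* lies at chr8:10984681-11008929 on the minus strand and had 16.9 and 10.6 exon FPKM, a mean of 13.75 ± 4.45 (SD, n = 2). *Irs1* was higher than *Irs2* in both mice, by 3.03-fold in mouse 1 and 5.10-fold in mouse 2.

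Of the AKT kinases, *Akt1* was far above *Akt2*. *Akt1*, at chr12:112653821-112674884 on the minus strand, is the broadly expressed AKT isoform linked to growth and survival. Its exon FPKM was 97.8 in mouse 1 and 63.1 in mouse 2, a mean of 80.45 ± 24.5 (SD, n = 2). *Akt2*, at chr7:27591552-27640826 on the plus strand, is the isoform best known for the insulin response of muscle, fat and liver. It had 5.4 and 4.1 exon FPKM, a mean of 4.75 ± 0.92 (SD, n = 2), and its counting intervals of 4.79 to 6.08 and 3.35 to 4.93 overlapped.

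Sorted by the mean, the exon levels ran from *Akt1* through *Irs1*, *Igf2r*, *Igfbp7*, *Irs2*, *Insr*, *Igf1*, *Igfbp2* and *Akt2* to *Igf1r*. The values of the 2 mice did not overlap between *Akt1* and *Irs1*, between *Igfbp7* and *Irs2*, or between *Akt2* and *Igf1r*. In the other 6 steps of the order the neighbours overlapped. By this measure *Irs1*, *Igf2r* and *Igfbp7* form one level and *Irs2*, *Insr*, *Igf1*, *Igfbp2* and *Akt2* a lower, continuous series. The measure sets values of one mouse against values of the other, whose scales may differ. Within each mouse *Igfbp2* was above *Akt2*, with 11.3 and 5.4 exon FPKM in mouse 1 and 5.1 and 4.1 in mouse 2.

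Ratios between related genes within a mouse do not depend on the scale of the library. They were not corrected for the relation to GC content described below, which need not cancel between genes of unlike GC content. *Irs1* has 50.4% GC in its exons and *Irs2* 58.0%, and *Igfbp7* has 58.6% and *Igfbp2* 61.9%. A ratio was said to exceed the spread where both mice lay on the same side of 1 and the means differed by more than the sum of their SDs, and all 5 pairs met this. These SDs are those of each gene over the 2 mice, so the second condition does depend on the scale. *Akt1* was 18.1-fold *Akt2* in mouse 1 and 15.4-fold in mouse 2, a mean of 16.8 ± 1.92 (SD, n = 2). *Igf2r* was 55.5-fold and 43.2-fold *Igf1r*. These were the widest gaps, and they were of like size in both mice. The second ratio leaves out the counting error of *Igf1r*, which was listed at 1.0 in both. *Igfbp7* was 3.61-fold *Igfbp2* in mouse 1 and 11.3-fold in mouse 2, the pair whose ratio varied most between the mice. The coding sequences within the paralog pairs *Irs1* and *Irs2*, *Insr* and *Igf1r*, and *Igfbp7* and *Igfbp2* were 62.6%, 66.0% and 56.5% identical and shared 0 stretches of 50 bases.

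**Figure D2:**
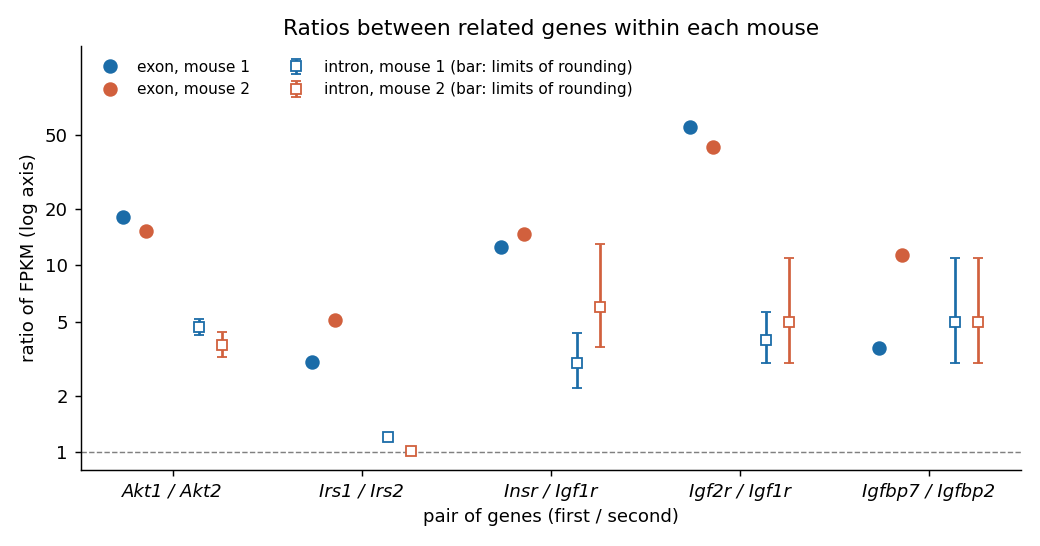
Ratio of the FPKM of related genes within each mouse (log axis), from exons (filled circles) and from introns (open squares, bars at the limits of rounding to 1 decimal). The exon ratio of *Akt1* to *Akt2* is 18.1 and 15.4 while the intron ratio is 4.67 and 3.75, and the intron ratio of *Irs1* to *Irs2* lies near 1, at 1.21 and 1.02.

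Intron reads come from unspliced RNA, which the study used as a measure of nascent transcripts. Introns of *Irs1* and *Irs2* had the highest intron FPKM of the 10 genes. *Irs1* had 4.7 intron FPKM in mouse 1 and 5.3 in mouse 2, and *Irs2* had 3.9 and 5.2. Their ranks were 117 and 133 of 20515 genes by mean intron FPKM. The adaptors were thus 4.07 ± 1.47-fold apart in exon FPKM but 1.11 ± 0.13-fold apart in intron FPKM (SD, n = 2).

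*Irs2* had the lowest exon to intron ratio of the 10 genes, 4.33 in mouse 1 and 2.04 in mouse 2, which placed it at percentile 2.63 of the 9535 genes that averaged 1 exon FPKM or more and had intron reads. Its intron FPKM was 23.1% of its exon FPKM in mouse 1 and 49.1% in mouse 2. *Irs2* overlaps the lncRNA *9530052E02Rik* on the other strand, which was listed at 0.2 and 0 exon FPKM. *Igf1r* was also low in this measure, with ratios of 5 and 10, but its intron FPKM of 0.2 and 0.1 lie near the last decimal, and rounding alone allows ratios from 3.8 to 7 in mouse 1 and from 6.33 to 21.0 in mouse 2. *Akt2* had ratios of 9 and 10.25 and *Irs1* 10.9 and 10.2.

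At the other end, *Igfbp7*, *Igfbp2* and *Igf2r* had exon to intron ratios at percentiles 96.98, 95.71 and 94.97. *Igfbp7* had 0.5 intron FPKM in both mice and ratios of 81.6 and 115.4. *Igf2r* had 0.8 and 0.5 intron FPKM and ratios of 69.4 and 86.4. The value of *Igfbp2*, 113 and 51.0, rests on 0.1 intron FPKM in both mice, and rounding allows 75 to 227 in mouse 1 and 33.7 to 103 in mouse 2. *Akt1*, *Igf1* and *Insr* lay between, with 37.4, 27.9 and 22.8 as the mean exon FPKM divided by the mean intron FPKM. The median of the 10 genes was 25.3, beside 15.3 for all 9535 genes.

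**Figure D3:**
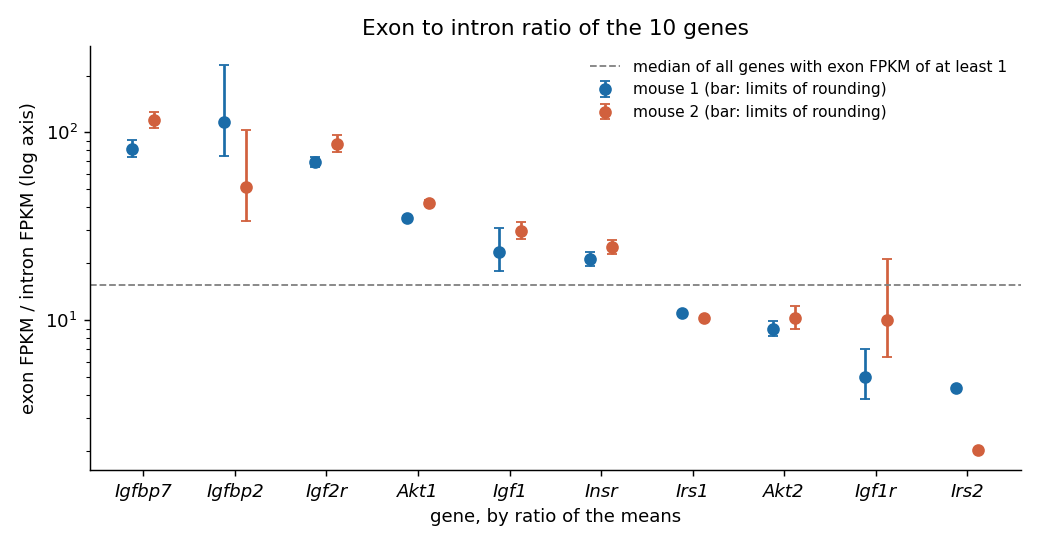
Exon FPKM divided by intron FPKM (log axis) of each of the 10 genes in mouse 1 and mouse 2, with bars at the limits of rounding and a dashed line at 15.3, the median of all genes with exon FPKM of at least 1 and intron FPKM above 0. *Irs2*, at 4.33 and 2.04, is lowest, and *Igfbp7*, at 81.6 and 115.4, is highest by the ratio of the means.

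The 2 mice, though of one genotype, did not have the same levels. On the scale of log2(FPKM + 1), which understates differences of low genes, 2 of the 10 genes were more than 2-fold apart, where 5.90% of all 9845 genes were. *Igf1* was higher in mouse 2, with a log2 ratio of mouse 2 to mouse 1 of 1.51 at percentile 99.8 of all genes. Only 1.08% of all genes were more than 2-fold higher in mouse 2. *Igfbp2* was higher in mouse 1, with a log2 ratio of -1.01 at percentile 4.77, where 4.82% of all genes were more than 2-fold higher in mouse 1. The counting intervals of the 2 mice did not overlap in 7 of the 10 genes, the exceptions being *Igf1r*, *Irs1* and *Akt2*. Over 9725 genes they did not overlap in 39.2%, though such intervals narrow with the reads behind a value and the 10 genes had the higher median level. In all, 5 genes were higher in mouse 1, 4 were higher in mouse 2 and *Igf1r* was equal, and 55.4% of all genes were higher in mouse 1. In introns, 7 of the 10 genes had a mean of at least 0.5 FPKM and 0 of these were more than 2-fold apart, beside 6.52% of 4220 genes. *Igf1* and *Igfbp2* were below that level, so the count does not bear on them. The introns of *Igf1* had 0.2 FPKM in mouse 1 and 0.5 in mouse 2, the same order as its exons, and those of *Igfbp2* had 0.1 in both.

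These differences moved with base composition. Over 9725 genes, Spearman's rho between the GC content of the exons and the log2 ratio was -0.66, across genes that share the same 2 libraries. The median log2 ratio fell from 0.29 in genes with up to 45% GC to -0.82 in genes above 60%. *Igf1* had the lowest exon GC content of the 10 genes, 39.1%, and *Igfbp2* the highest, 61.9%. After a lowess fit on GC content was removed, 1.91% of 9725 genes were more than 2-fold apart, and so were 2 of the 10 genes, though not the same pair. *Igf1* stayed past 2-fold, with a log2 ratio of 1.08. *Igfbp7*, which has 58.6% GC, moved from 0.49 to 1.14. *Igfbp2* moved to -0.15 and *Irs2* from -0.63 to -0.02. *Akt1* and *Akt2* changed sign, from -0.62 to 0.10 and from -0.33 to 0.11, so their order between the mice depends on this correction.

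The log2 ratios also rest on the scale of the libraries. When each mouse was rescaled to the same summed exon FPKM, all values of mouse 2 fell by 1.07 on the log2 scale relative to mouse 1. That sum is set mostly by the 10 most abundant genes, which held 79.5% of it in mouse 1 and 90.6% in mouse 2. *Csn2* alone had 108555 exon FPKM in mouse 1 and 481937 in mouse 2. With the pseudocount, the median log2 ratio of all genes moved from -0.08 to -0.90. On that scale 97.8% of all genes and 9 of the 10 genes were higher in mouse 1, and 5 of the 10 genes were more than 2-fold apart, beside 42.6% of all genes. The factor is the same for every gene, and the pseudocount of 1 lessens its effect in low genes. These counts therefore say nothing of the 10 genes in particular. *Insr*, *Irs1* and *Igfbp7* changed sign under the rescaling, to -0.77, -0.97 and -0.55, and *Igf1r* moved from 0.00 to -0.48. *Igf1* was the gene that remained higher in mouse 2, with a log2 ratio of 0.55, and it was also higher there with a pseudocount of 0.1, with centring and with the GC correction.

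**Figure D4:**
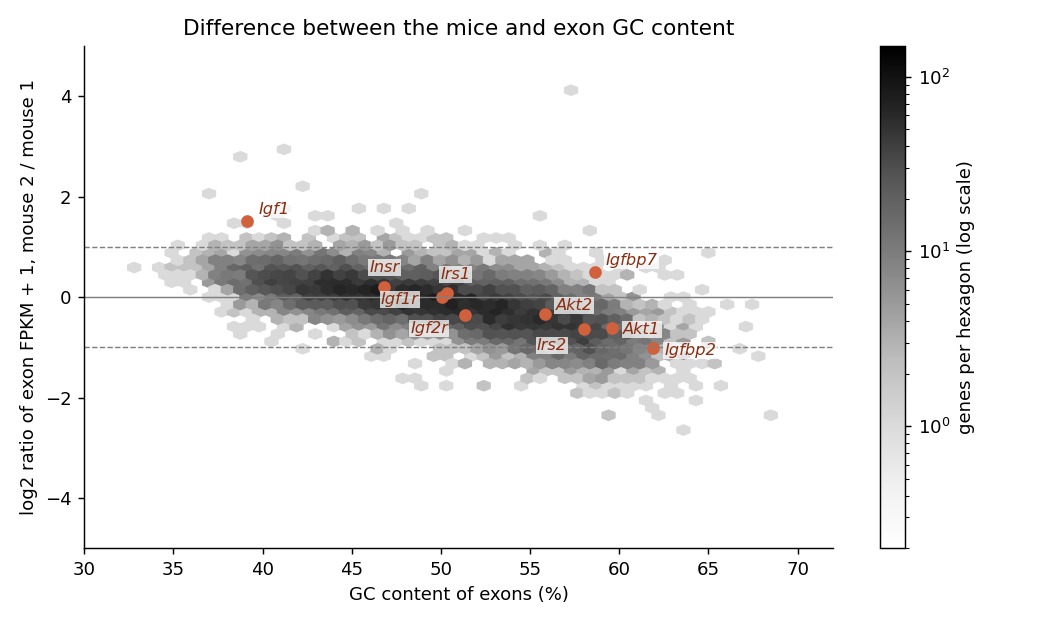
Log2 ratio of exon FPKM + 1 of mouse 2 to mouse 1 against the GC content of the exons, with all 9725 genes as hexagons shaded by number and the 10 genes as points. Dashed lines mark 2-fold. The cloud slopes from a median of 0.29 below 45% GC to -0.82 above 60% GC, and *Igf1*, at 1.51, and *Igfbp7*, at 0.49, lie above most genes of like GC content.

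The other genes of the pathway were described by a list of 58 genes in the same roles, all of which were in the data. Of these, 46 averaged 1 exon FPKM or more and 13 averaged 10 or more, and the median of the 46 was 6.53. The ligands other than *Igf1* were low or listed at 0. *Igf2* had 0.3 and 0.4 exon FPKM, and *Ins1* and *Ins2*, the insulin genes, were listed at 0 in both mice, as were *Insrr*, *Igfbp1*, *Pappa2*, *Irs4* and *Foxo6*. *Acta2* was listed at 0 as well, so a listed 0 is not read here as a lack of expression.

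Among binding proteins and their regulators, 7 of 10 other genes reached 1 FPKM. The highest was *Igfals*, the acid-labile subunit that holds IGF and its binding protein in a ternary complex in the circulation. It had 109.6 exon FPKM in mouse 1 and 72.3 in mouse 2, a mean of 90.95 ± 26.4 (SD, n = 2), and ranked 232, above each of the 10 genes. Of the other adaptors, 4 of 7 reached 1 FPKM and none reached 10, the highest being *Gab1* with 8.2 and 8.6, so that *Irs1* and *Irs2* were both above every other adaptor of the list in mean level.

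Downstream, *Pik3r1*, the regulatory subunit of PI3K that binds the IRS adaptors, had 50.5 and 54.5 exon FPKM, close to *Irs1* in both mice. All 6 other genes of the AKT kinases and activators reached 1 FPKM, with *Mapkap1*, a subunit of the mTOR complex that phosphorylates AKT, highest at 9.4 and 8.1. Of the receptor phosphatases, *Ptpn1*, which dephosphorylates the insulin receptor, was the higher with 6.1 and 4.2. All 6 brakes of the pathway were measured above 1, and 3 of them reached 10. Of the 17 targets, 16 reached 1 FPKM and 6 reached 10, and the highest was *Slc2a1*, the glucose transporter GLUT1, with 79.6 and 58.2.

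Of the 46 other genes, 3 were more than 2-fold apart between the mice, all higher in mouse 1, read against the same 5.90% of all genes. *Igfbp6* had 7.1 and 1.5 exon FPKM, *Stc2* had 6.5 and 2.0, and *Pik3r2* had 6.3 and 2.4, with log2 ratios of -1.70, -1.32 and -1.10. After the GC correction *Igfbp6* was the one that stayed past 2-fold, at -1.02. In all, 25 of the 46 genes were higher in mouse 1 and 21 in mouse 2. The macrophage markers, 4 of 4, were also higher in mouse 1, with none at 0. Every other marker list had markers higher in each mouse, and 55.4% of all genes were higher in mouse 1. The part of macrophages in these differences was not tested.

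**Figure D5:**
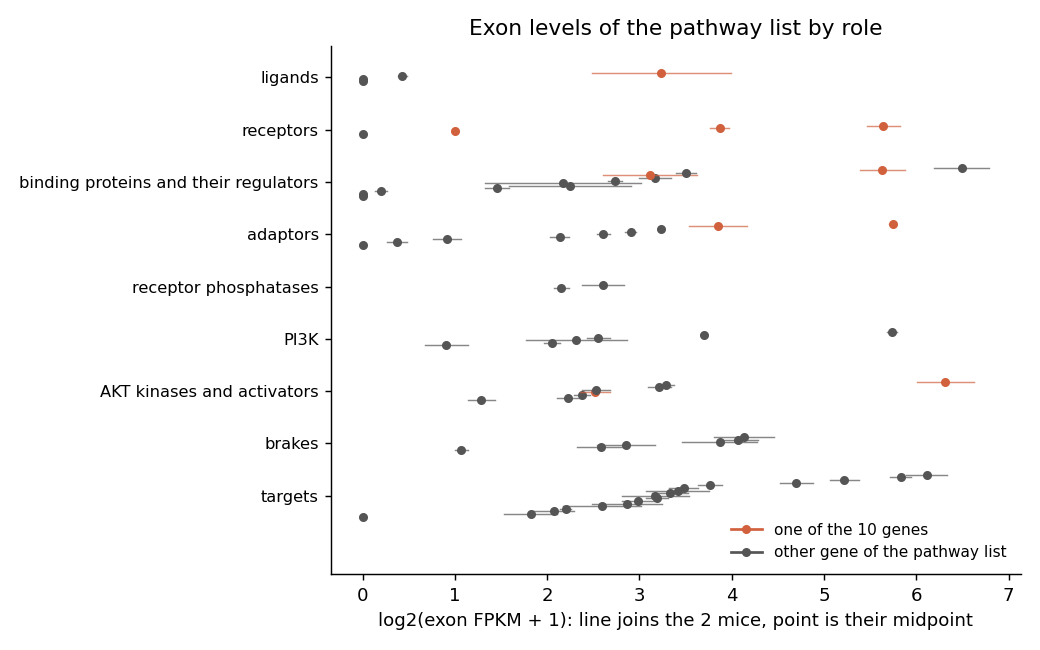
Exon level, as log2(exon FPKM + 1), of every gene of the pathway list by role, with a line joining the 2 mice and a point at their midpoint. The 10 genes are in orange and the other 58 genes in grey. Among the binding proteins and their regulators *Igfals* lies above *Igfbp7*, and among the AKT kinases and activators *Akt1* lies far to the right of all others.

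The promoter letters of the genes were read for the STAT5 recognition sequence TTCNNNGAA and the CRE sequence TGACGTCA, the motifs at issue in the study, on both strands of windows from 250 bases before to 50 bases after each RefSeq start (GRCm38). Windows were found for 9 of the 10 genes, 14 windows in all, and not for *Insr*. TTCNNNGAA was present in 1 of the 14 windows, beside 8.30% of 32851 promoter windows. It lay in a window of *Akt2*, with its first base 160 bases before the start, in the stretch chr7:27591385-27591408 on the plus strand, with the motif in capitals.
Akt2 promoter: ctgggccTTCGGGGAAagcctact
The full CRE was in 0 of the 14 windows, beside 1.79% of all windows, and its core TGACG, which the full CRE contains, was in 4, those of *Akt2*, *Igf2r* and *Irs1*, beside 20.8%. These matches describe letters in the reference, and no binding was measured here.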

How the data were processed

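RNA-seq data of L10 mammary tissue from 2 wt/Wap-Tbrg4 mice were used, and the 12 ChIP-seq samples of the series were not analysed here. The sources do not say more of how the 2 replicates were taken than that each is a sample of its own. The authors made stranded total RNA libraries with a TruSeq kit, aligned them to mm10 by STAR, used HTSeq to count on the merged exons of UCSC known genes and on the introns between these, and derived FPKM with DESeq2. The deposited FPKM carry 1 decimal and no read counts. Tool versions, the strand setting and the treatment of reads with several places are not given in the sources used here.

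Of 20550 deposited genes, 35 without a usable symbol were left out. Positions, merged exon and intron lengths and GC content came from RefSeq (GRCm38.p6), which matched 98.1% of the genes and may differ from the UCSC models. The value of 1 read was estimated from low FPKM of short exon and intron features (up to 8 reads, steps of at least 0.2 FPKM), and estimated reads gave exact Poisson 95% intervals. Mice were compared as log2 ratios with a pseudocount of 1 for exons (mean FPKM of at least 1) and 0.1 for introns (at least 0.5). The GC correction was a lowess fit over 30% of the genes. Copies were sought by minimap2 with each longest coding sequence. The step estimate and the GC correction were tested on simulated data.

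The 10 genes and all lists were chosen with earlier results of these data known. Beside the 10 genes, the text names the highest gene of each role, pathway genes more than 2-fold apart or at 0 in both mice, and *Igf2*. Some genes this rule covers are not reported here. Overlapping genes, *Acta2*, *Csn2*, *Wap* and *Alb* were named after their values were seen. Alternatives covered scaling, pseudocounts, filters, the mean, centring, the GC correction and leaving out each mouse. Tools were minimap2 2.31, samtools 1.23.1 and Python 3.11.15 with pandas 2.3.3, numpy 2.4.6, statsmodels 0.14.6, scipy 1.17.1, biopython 1.88 and matplotlib 3.10.9.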

Additional observations from a re-analysis of the deposited data

How the results depend on the processing

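Beside values without one mouse and rescaled within-mouse ratios, which cannot move far by construction, 106 alternative values were computed. Of these, 71 moved by less than the spread between the mice and 35 moved further. For log2 ratios the limit was 0.1, and for counts it was 1.5-fold. The 71 include the geometric means, which with 2 mice always lie within 1 SD of the mean. They also include the count of the 10 genes without a filter, which all 10 pass, so 71 overstates how little moved. The log2 ratios of 5 genes changed sign, none of which was more than 2-fold apart before. Intron FPKM in place of exon FPKM, chosen after seeing the data, brought the ratio of *Akt1* to *Akt2* from 16.8 to 4.21, of *Irs1* to *Irs2* from 4.07 to 1.11, of *Insr* to *Igf1r* from 13.65 to 4.50 and of *Igf2r* to *Igf1r* from 49.35 to 4.50. The number of the 10 genes more than 2-fold apart went from 2 to 1 when centred on the median of all genes, to 0 among genes that averaged 10 exon FPKM or more, since *Igf1* and *Igfbp2* lie below that filter, and to 5 with each mouse rescaled to the same sum, also chosen after seeing the data. The number of other pathway genes went from 3 to 1 with the GC correction, 0 with the filter of 10 and 23 with the rescaling. Without one mouse the ratios ranged from 15.4 to 18.1 (*Akt1* to *Akt2*), 3.03 to 5.10 (*Irs1* to *Irs2*), 12.6 to 14.7 (*Insr* to *Igf1r*), 43.2 to 55.5 (*Igf2r* to *Igf1r*) and 3.61 to 11.3 (*Igfbp7* to *Igfbp2*), which with 2 mice always lies within 1 SD of the mean and shows no stability. No paired analysis was possible because RNA was analysed from 1 group, so there is no second group for the replicate numbers to pair with. Below about 1 FPKM the values hold few steps of the last decimal, which limits the intron values of *Igf1r* and *Igfbp2* most. The scale of mouse 2 against mouse 1 is not settled by these data, and levels in FPKM should be read with both mice in view.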
